A study of Mus musculus with 13 samples.

Results

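The Sprouty genes Spry1, Spry2 and Spry4, the Spred genes Spred1, Spred2 and Spred3, and the dual-specificity phosphatase genes Dusp4, Dusp5 and Dusp6 encode inhibitors of the RAS-ERK pathway. These 9 genes were taken by symbol from the 22997 symbols of a table of RNA read counts from mouse bone marrow plasma cells. In this pathway an active receptor turns RAS on, RAS starts a relay of the kinases RAF, MEK and ERK, and ERK changes transcription. Several of its target genes encode inhibitors of the pathway, which closes a negative feedback loop. Sprouty proteins act near receptors and RAF, and Spred proteins bring neurofibromin, a RAS GTPase-activating protein, to RAS at the membrane. DUSP4, DUSP5 and DUSP6 remove activating phosphates from MAP kinases, DUSP4 and DUSP5 in the nucleus and DUSP6 in the cytoplasm. Mutations that activate RAS genes are common in multiple myeloma, the cancer of plasma cells.

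All 13 libraries came from C57/BL6 mice and from 50000 sorted cells each, positive for CD138 (syndecan-1) and CD45.2 and negative for B220. VQ denotes cells with the Vκ*MYC transgene, Cre expressed from IgG1, and 1 Nras allele in which a stop cassette precedes the activating Q61R mutation. VQ cells were recovered from transplant recipients of 3 lines, D1 (2 recipients), D4 (1 recipient) and D5 (2 recipients). The 2 tVk12653 libraries came from recipients of a single transplanted line that the labels give by this name alone. V denotes plasma cells of mice with the Vκ*MYC transgene and IgG1-Cre but no Nras mutation (3 libraries), and WT those of wild-type mice (3 libraries). Transplantation went with genotype, since VQ and tVk12653 cells were recovered from recipients and V and WT cells were not, and the effects of the pair cannot be told apart. Cre acts in cells that have expressed the IgG1 locus, and recipients of a line carry the same transplanted cells. In bulk RNA, fewer cells that express a gene and less RNA per cell cannot be told apart.

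Upstream sequences are shown for 3 members that held a searched motif: Dusp6 and Spred1, whose levels differed between lines D1 and D5, and Dusp5, whose level did not pass that test. Each is read 5′ to 3′ on the plus strand of RefSeq GRCm38.p6 and ends at the base before the start in the RefSeq table, except that the Dusp5 sequence stops before an earlier annotated start. Capitals in Dusp6 and Spred1 mark the core CGGAAG of ETS factors, the family of Etv4 and Etv5, on either strand. Capitals in Dusp5 mark a pair of adjoining CArG boxes, the element that serum response factor binds, and the half-site TGACGT of the cyclic AMP response element.
Dusp6 chr10:99262981-99263230: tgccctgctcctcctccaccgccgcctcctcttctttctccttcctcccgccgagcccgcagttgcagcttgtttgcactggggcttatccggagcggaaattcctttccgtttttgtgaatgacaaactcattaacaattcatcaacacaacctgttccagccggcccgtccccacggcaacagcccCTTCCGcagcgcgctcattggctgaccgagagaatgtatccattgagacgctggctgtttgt
Spred1 chr2:117120821-117121070: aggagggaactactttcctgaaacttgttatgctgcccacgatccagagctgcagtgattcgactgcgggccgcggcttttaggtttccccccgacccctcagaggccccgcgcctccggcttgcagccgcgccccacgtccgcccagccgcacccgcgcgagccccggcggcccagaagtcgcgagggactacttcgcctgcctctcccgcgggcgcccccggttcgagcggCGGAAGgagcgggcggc
Dusp5 chr19:53528895-53529108: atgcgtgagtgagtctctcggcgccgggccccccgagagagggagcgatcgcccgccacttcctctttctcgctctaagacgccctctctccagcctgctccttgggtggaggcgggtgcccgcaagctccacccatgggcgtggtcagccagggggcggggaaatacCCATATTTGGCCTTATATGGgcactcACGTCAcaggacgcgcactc

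The RefSeq promoter table held 7 of the 9 members, and Spry4 and Dusp4 had no entry. In the 250 bases before the start, both strands were searched for CGGAAG, the E-box CACGTG, the AP-1 site TGANTCA, the half-site TGACGT and the CArG box. CGGAAG lay in 3 of the 7 promoters, 62 to 57 bases before the start of Dusp6, 17 to 12 before that of Spred1 and 43 to 38 before that of Spred2. Of 32851 mouse promoters in the table, 13.6% held it. The CArG box lay in Dusp5 alone among the 7, 82 to 73 and 72 to 63 bases before the start, and 1.47% of all promoters held one. TGACGT lay in Dusp5 and Spred2, against 6.47% of all promoters. The Spred2 matches of CGGAAG and TGACGT lie before its RefSeq start but inside the gene range given for it below. The E-box was found in 0 of the 7, against 6.02% of all promoters, and the AP-1 site in 0 of the 7, against 6.75%. Spry1 and Spry2 held none of the 5 motifs in this window, nor did Spred3, whose RefSeq start in this table lies inside the gene range given for it below. These matches describe letters and no binding was measured.

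Total counts ranged from 2096815 to 8512281 per library, and levels are given as CPM, that is, counts divided by the scaled library total. Libraries of the same group differed by a chi-square of 5.23 to 15.6 for each degree of freedom, more than the value near 1 that counting noise gives. No label says whether the libraries of V and of WT come from separate animals, so their replicates are libraries, and those of a transplanted line are recipients. For each gene, a fit takes a shared estimate of the spread over all its groups. Comparisons of VQ, tVk12653, V and WT came from a fit with the VQ lines as units. Their p-values, also those of V against WT, thus carry the spread between VQ lines. The 7 plasma cell markers were above 0 in every library. Their summed level was 5219 to 7943 CPM in VQ, 8368 to 12102 in tVk12653, 41622 to 62517 in V and 37864 to 70890 in WT. The 8 neutrophil markers were also above 0 in every library, at 69.4 to 1229 CPM in sum in VQ, 89.1 to 153 in tVk12653, 1802 to 3619 in V and 3308 to 8955 in WT. B cell markers summed to 2.96 to 7.73 CPM in VQ, 1.45 to 1.62 in tVk12653, 153 to 264 in V and 146 to 476 in WT. These contrasts run alongside every comparison of VQ or tVk12653 with V or WT, and their part in the member genes was not tested. The V libraries held the X-inactivation RNA Xist at 1493 to 2631 CPM and no RNA of the Y-linked Ddx3y, and WT replicate 1 held both, Xist at 1481 CPM and Ddx3y at 47.9 CPM. The other WT libraries held Ddx3y at 129 and 141 CPM and Xist at 2.58 and 3.98 CPM. VQ libraries held Xist at 3.8 to 97.6 CPM and Ddx3y at 0 to 0.435 CPM. In tVk12653 Xist was at 3.24 and 3.26 CPM and Ddx3y at 0 and 0.362 CPM. This contrast thus also runs alongside comparisons of VQ or tVk12653 with V or WT, and its part was not tested. Nras stood at 41.7 to 163 CPM in VQ, 46.7 to 54.1 in tVk12653, 30.8 to 38.1 in V and 36.1 to 36.6 in WT, and these counts do not separate its alleles. Myc stood at 687 to 1665 CPM in VQ, 8000 and 8200 in tVk12653, 307 to 430 in V and 35.0 to 72.2 in WT. In log2 terms Myc was lower by 2.58 ± 0.36 in VQ against tVk12653 (edgeR adjusted p = 0.00394). Its part in the member genes was not tested.

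**Figure D1:**
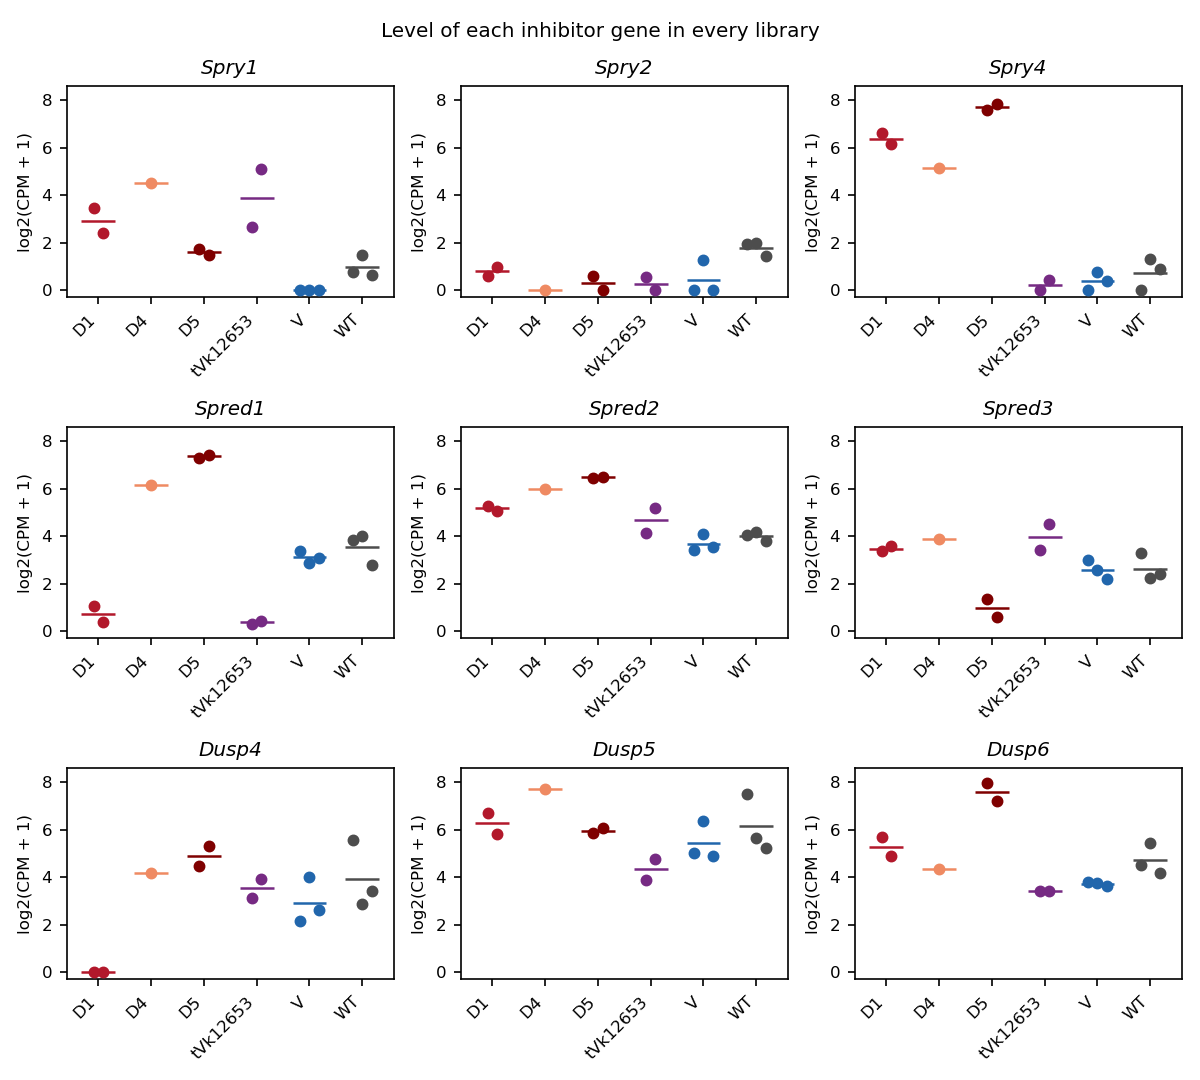
Level of each of the 9 genes in every library, as log2(CPM + 1), by group from D1, D4 and D5 through tVk12653 to V and WT; points are libraries and lines are group means. Spry4 and Spred2 stand higher in all 5 VQ libraries than in any V or WT library, whereas Spred1 is low in D1 and tVk12653, and Dusp4 is at 0 in D1.

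Spry4 lies on chromosome 18 (GRCm38, 38586247 to 38601415, minus strand) and encodes a Sprouty protein that restrains RAS and RAF activation. It stood at 96.9 and 70.1 CPM in D1, 34.7 in the D4 library, 194 and 228 in D5, 0 and 0.362 in tVk12653, 0, 0.711 and 0.325 in V, and 0, 1.47 and 0.853 in WT. The lowest VQ library lay far above the highest library of the other groups, and the others overlapped close to 0. Summed over libraries, Spry4 had 2875 counts in VQ, 1 in tVk12653, 3 in V and 7 in WT. Its order was D5, D1, D4 and then WT, V and tVk12653, whose ranges overlap. In log2 terms Spry4 was higher by 7.16 ± 0.97 (standard error) in VQ against WT (adjusted p = 0.000869), with the 3 VQ lines as units. This was 1 of 2 members called among 8 tested, both higher, where 17.3% of all 11933 genes were called higher and 32.4% in either direction. The ratio of pooled counts was 134 (exact 95% interval 65.1 to 334, counting error only). Without line D5 the log2 value was 6.14, and without WT replicate 2 it was 7.86, both still called.

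Against V, Spry4 was higher in VQ by 8.14 ± 1.07 (adjusted p = 0.00111). It was 1 of 4 members called higher of 8 tested, with 0 lower, where 15.6% of all genes were called higher and 28.0% in either direction. Without line D5 the log2 value was 7.11 and without V replicate 2 it was 9.01, again called. Against tVk12653 the log2 value was 9.38 ± 1.39 (adjusted p = 0.00524), and 2 of 8 members were called, both higher, where 5.97% of all genes were called higher and 10.2% in either direction. Since tVk12653 had a single count, the pooled ratio of 735 has an interval of 132 to 29035. Leaving out tVk12653 replicate 1 (8.12, adjusted p = 0.0691) or replicate 2 (12.07, adjusted p = 0.0562) ended this call, and without line D5 the value was 8.35. The comparisons of VQ with WT, V and tVk12653 share the VQ libraries. Spry4 in tVk12653 against WT gave -2.23 ± 1.91 (adjusted p = 0.416).

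Spry1, on chromosome 3 (37639947 to 37644598, plus strand), encodes another Sprouty inhibitor of receptor signalling and had a different profile. Its levels were 9.96 and 4.35 CPM in D1, 21.6 in the D4 library, 2.38 and 1.79 in D5, and 5.32 and 33.0 in tVk12653. V libraries held 0 counts, and WT libraries 0.704, 1.84 and 0.569 CPM. The highest Spry1 levels were those of tVk12653 replicate 2 and D4, and the ranges of D5 and WT overlapped. All 3 V libraries were at 0, so bounds use library means over a floor of 3 counts per library, 1.17 CPM. The mean of the VQ libraries was at least 6.84-fold higher than V (adjusted p = 0.0153, lines as units). The mean of tVk12653 was at least 16.3-fold higher (adjusted p = 0.0128). These bounds do not hold for each line, since D5 lay close to that floor. The fitted VQ value was 8.53 on the log2 scale and 7.23 without line D4, still called. Against WT, VQ was higher by 3.26 ± 1.12 without passing the test (adjusted p = 0.0568), and its pooled count ratio was 8.98 (4.65 to 19.9). Of the 247 VQ counts 154 came from D4, without which the log2 value was 2.04 (adjusted p = 0.145), and it was called without line D5 (3.73, adjusted p = 0.023) or D1 replicate 2 (3.45, adjusted p = 0.0461). Spry1 in tVk12653 against WT was higher by 4.19 ± 1.19 (adjusted p = 0.0344), with a pooled ratio of 16.2 (8.25 to 36.4). VQ against tVk12653 gave -0.93 ± 1.03 (adjusted p = 0.579), and 0.89 without tVk12653 replicate 2.

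Both tVk12653 calls of Spry1 rest on few libraries. The call against WT was lost without tVk12653 replicate 2 (2.35, adjusted p = 0.278) and without WT replicate 1, 2 or 3 (adjusted p = 0.101, 0.0668 and 0.109), and without tVk12653 replicate 1 it was 5.01. That against V was lost without tVk12653 replicate 2 (7.70, adjusted p = 0.0722) and was 10.3 without replicate 1. Among members Spry1 was the only one called in tVk12653 against WT, where 12.6% of genes were called higher and 28.2% in either direction. It was also the only one called in tVk12653 against V, where 10.3% were called higher and 23.2% in either direction.

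Spry2, on chromosome 14 (105891947 to 105896819, minus strand), encodes the third Sprouty of the set and was near the floor. Its levels were 0.538 and 0.978 CPM in D1, 0 in the D4 library, 0.530 and 0 in D5, 0.462 and 0 in tVk12653, 0, 1.42 and 0 in V, and 2.82, 2.95 and 1.71 in WT. All 3 WT libraries exceeded every other library, but the counts were small: 13 in VQ, 2 in tVk12653, 4 in V and 22 in WT. The pooled ratio of tVk12653 to WT was 0.116 (0.0133 to 0.473), and that of V to WT was 0.208 (0.0522 to 0.613). Spry2 did not pass the low-count filter of the fit of arms, so it has no test there. That fit with no low-count filter gave -2.49 in VQ against WT (adjusted p = 0.208). With all 13 libraries as units and 1 mean per group, which takes recipients of a line as replicates, it fell by 3.67 (adjusted p = 0.0102).

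Spred2, on chromosome 11 (19924375 to 20024026, plus strand), encodes a Spred protein that blocks RAS-dependent activation of RAF. It stood at 37.9 and 32.9 CPM in D1, 63.3 in the D4 library, 86.9 and 90.0 in D5, 16.6 and 35.5 in tVk12653, 9.86, 16.0 and 10.7 in V, and 15.5, 17.3 and 12.8 in WT. Every VQ library exceeded every V and WT library, D1 overlapped with tVk12653, and V overlapped with WT. In log2 terms Spred2 was higher by 2.09 ± 0.41 in VQ against WT (adjusted p = 0.00446) and by 2.39 ± 0.41 in VQ against V (adjusted p = 0.0034). With any single library or line left out these values ranged from 1.69 to 2.34 and from 1.98 to 2.63, and all remained called. Against tVk12653, VQ gave 1.32 ± 0.45 (adjusted p = 0.0915). In tVk12653 against WT it was 0.77 ± 0.44 (adjusted p = 0.221) and against V 1.07 ± 0.45 (adjusted p = 0.107).

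Spred1, on chromosome 2 (117121374 to 117182279, plus strand), encodes the Spred whose loss in humans causes Legius syndrome, a disorder with features of neurofibromatosis. It differed widely between the VQ lines, with 1.08 and 0.326 CPM in D1, 70.1 in the D4 library, and 158 and 170 in D5. It stood at 0.231 and 0.362 CPM in tVk12653, 9.37, 6.40 and 7.46 in V, and 13.4, 15.1 and 5.97 in WT. D4 and D5 thus lay above all V and WT libraries, and D1 and tVk12653 below them. Taken over the 3 VQ lines, Spred1 gave 2.84 ± 1.22 against WT (adjusted p = 0.102) and 3.40 ± 1.27 against V (adjusted p = 0.0718), with standard errors that carry this split. In VQ against tVk12653 the log2 value was 8.04 ± 2.16 (adjusted p = 0.0445), resting on 2 counts in tVk12653 (pooled ratio 226, 62.4 to 1866). This call was lost in 9 of 16 fits that each left out a library or line: each WT, V or tVk12653 library, and line D5, with adjusted p of 0.0632 to 0.261. It was also lost with no low-count filter (adjusted p = 0.134) and when both WT replicate 2 and D1 replicate 1 were dropped (adjusted p = 0.0685). In tVk12653 against WT Spred1 gave -5.20 ± 2.15 (adjusted p = 0.099), and this standard error also carries the spread between VQ lines. With all 13 libraries and 1 mean per group, which takes recipients as replicates, it was -5.17 (edgeR adjusted p = 1.94e-05). DESeq2 gave -5.32 (adjusted p = 0.0041), and edgeR with no low-count filter -5.18 (adjusted p = 0.24). Against V the value was -4.64 ± 2.19 (adjusted p = 0.151), and -4.61 with 1 mean per group (adjusted p = 0.00012).

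Spred3, on chromosome 7 (29158829 to 29170411, minus strand), encodes the third Spred protein. It stood at 9.42 and 11 CPM in D1, 13.8 in the D4 library, 1.59 and 0.511 in D5, 9.71 and 22.1 in tVk12653, 6.90, 4.98 and 3.57 in V, and 8.80, 3.69 and 4.26 in WT. D5 held the lowest values of the 6 groups and the rest overlapped or adjoined. Spred3 passed no test of VQ or tVk12653 in the fit of arms, at 0.63 ± 0.77 in VQ against WT (adjusted p = 0.555, and -0.07 with 1 mean per group), -0.87 ± 0.82 in VQ against tVk12653 (adjusted p = 0.503) and 1.50 ± 0.84 in tVk12653 against WT (adjusted p = 0.212). Its exons share 202 bases with Ggn on the opposite strand, and Ggn had 81 counts over all libraries against 434 for Spred3. Whether counting used strand is not given in the sources used here, so reads of these 2 genes may be mixed. Antisense transcripts also share 710 exon bases with Spry1 and 547 with Dusp5, and these transcripts were not analysed here.

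Dusp6, on chromosome 10 (99263231 to 99267489, plus strand), encodes the cytoplasmic phosphatase specific for ERK, and its promoter sequence is shown above. It stood at 50.3 and 28.8 CPM in D1, 19.4 in the D4 library, 246 and 148 in D5, 9.71 and 9.78 in tVk12653, 12.8, 12.5 and 11.4 in V, and 22.2, 42.0 and 17.1 in WT. D5 exceeded every other library, D1 and D4 overlapped with WT, and all V and tVk12653 libraries lay below the lowest WT library. In log2 terms Dusp6 was higher by 2.85 ± 0.80 in VQ against V (adjusted p = 0.0258). This call ended without V replicate 1, 2 or 3 (adjusted p = 0.0765, 0.0775 and 0.0887) and with no low-count filter (adjusted p = 0.067). Without line D5 the value was 1.15 (adjusted p = 0.0452). VQ against WT gave 1.71 ± 0.75 (adjusted p = 0.107), which was 0.02 without line D5 (adjusted p = 0.971) and was called without line D4 (2.19, adjusted p = 0.0223). VQ against tVk12653 gave 3.18 ± 0.95 (adjusted p = 0.0608), which was 1.48 without line D5 (adjusted p = 0.0505). That comparison was called without line D1 (3.47, adjusted p = 0.0312), line D4 (3.65, adjusted p = 0.0156) or D1 replicate 2 (3.27, adjusted p = 0.0483). In tVk12653 against WT it was -1.47 ± 0.90 (adjusted p = 0.247).

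Dusp5, on chromosome 19 (53529109 to 53542431, plus strand), encodes the nuclear phosphatase specific for ERK. It stood at 104 and 56.2 CPM in D1, 207 in the D4 library, 57.5 and 65.7 in D5, 13.9 and 26.4 in tVk12653, 31.6, 82.5 and 28.6 in V, and 181, 49.8 and 37.0 in WT. Only the tVk12653 libraries lay below every other library, and D1, D5, V and WT overlapped. The log2 value was 0.37 ± 0.69 in VQ against WT (adjusted p = 0.707, and -0.36 without line D4), 1.27 ± 0.71 in VQ against V (adjusted p = 0.201) and 2.53 ± 0.87 in VQ against tVk12653 (adjusted p = 0.0922). For tVk12653 against WT it was -2.16 ± 0.86 (adjusted p = 0.0873), so no comparison passed.

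Dusp4, on chromosome 8 (34807297 to 34819894, plus strand), encodes a nuclear phosphatase that acts on ERK and on other MAP kinases. It had 0 counts in both D1 libraries, 17.1 CPM in D4, 21.5 and 39.1 in D5, 7.86 and 14.1 in tVk12653, 3.45, 14.9 and 5.19 in V, and 45.8, 6.27 and 9.67 in WT. D1 stood apart and the other groups overlapped, apart from D4 and D5, which lay above V and tVk12653. The log2 value was -0.32 ± 1.31 in VQ against WT (adjusted p = 0.874), 1.04 ± 1.36 in VQ against V (adjusted p = 0.593) and 0.59 ± 1.51 in VQ against tVk12653 (adjusted p = 0.818). These directions were not stable: with all 13 libraries and 1 mean per group the values were -3.01 (adjusted p = 0.0353), -1.67 and -2.09, and VQ against WT was 1.04 without WT replicate 1. WT replicate 1, which held both Xist and Ddx3y RNA, had the highest Dusp4 and Dusp5 of the WT libraries, at 45.8 and 181 CPM.

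**Figure D2:**
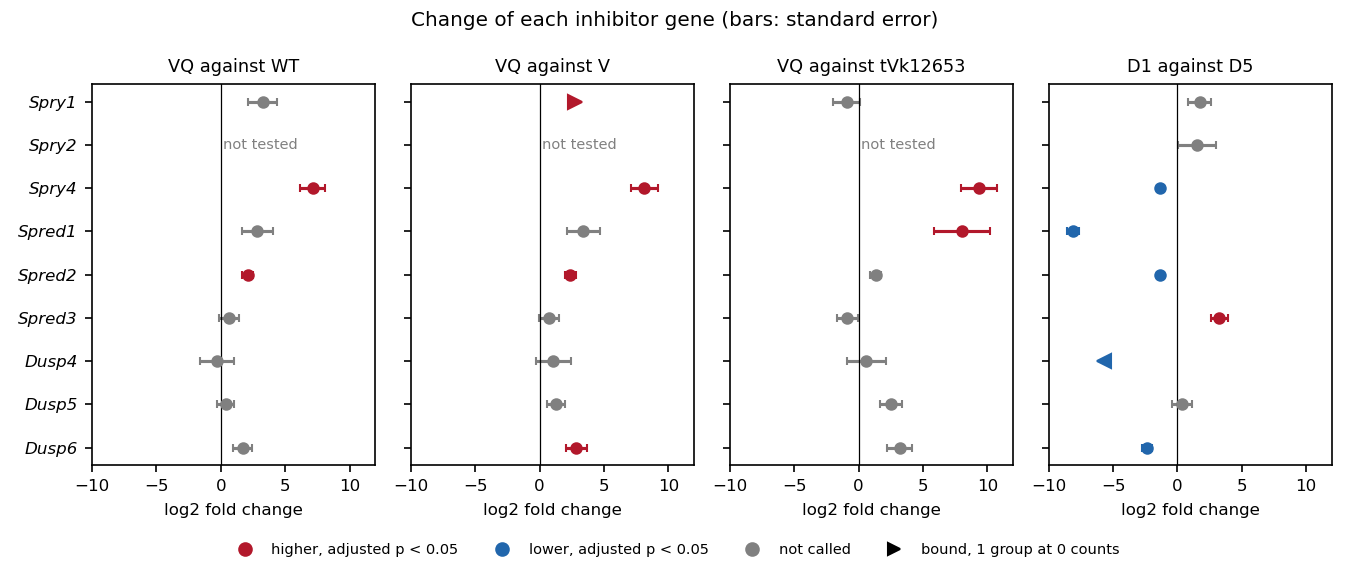
Log2 fold change with standard error of each member in VQ against WT, VQ against V, VQ against tVk12653 and D1 against D5, from edgeR; triangles mark lower bounds where a group had 0 counts. Spry4 is the highest in the comparisons of VQ with WT and with tVk12653, at 7.16 and 9.38, and Spred1 is at -8.13 in D1 against D5.

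Over the 8 members tested, the median log2 fold change was 1.90 in VQ against WT, beside 0.08 over all genes. In VQ against V it was 2.62, or 2.58 with Spry1 at its bound, beside 0.08, and in VQ against tVk12653 1.92 beside 0.18. In tVk12653 against WT the median was -1.19, beside -0.05, and in tVk12653 against V 0.06 beside -0.04. An unadjusted p under 0.05 was seen for 5 of the 8 members in each VQ comparison, where 44.2%, 41.5% and 29.1% of all genes had one against WT, V and tVk12653. In tVk12653 this held for 3 of 8 members against WT (40.5% of all genes) and 2 of 8 against V (37.8%).

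V against WT asks what the MYC transgene and Cre do to the feedback genes without mutant Nras. By edgeR, 0 of 8 members and 0 of 11933 genes (0%) were called over all arms, 0 members and 628 genes (5.26%) had an unadjusted p under 0.05, and DESeq2 called 0 members and 45 genes. Myc itself was higher in V by 2.80 ± 0.35 on the log2 scale and was not called either (edgeR adjusted p = 0.0852). The lack of calls therefore does not show that the members were unchanged. The median over members was -0.94, beside 0.01 over all genes. Dusp6 averaged 12.2 ± 0.761 CPM in V, against 27.1 ± 13.2 CPM in WT (SD, n = 3 each), with all 3 V libraries below all 3 WT libraries (-1.14 ± 0.78, edgeR adjusted p = 1). Same-numbered V and WT libraries deviated together, a pairing read from these data and not from the labels. With only these 2 groups fitted and the replicate number as a block, Dusp6 fell by 1.07 (edgeR adjusted p = 0.0474). It was the only member of 6 tested there that was called, while 479 genes of 10510 were called. Without the block, that fit gave -1.14 for Dusp6 (edgeR adjusted p = 0.238), with 0 members and 2 of 10510 genes called. The call of Dusp6 thus rests on the block taken from these data. Spred2 averaged 12.2 ± 3.33 CPM in V, against 15.2 ± 2.28 CPM in WT (-0.30 ± 0.41), and Spred1 7.75 ± 1.50 in V, against 11.5 ± 4.86 in WT (-0.56 ± 1.25), both with edgeR adjusted p = 1. The 5 erythroid markers in the table summed to 3.45 to 11.7 CPM in V and 44.0 to 236 CPM in WT, and their part was not tested. Xist and Ddx3y differed between V and WT as given above, and genotype and sex-linked RNA cannot be told apart here.

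D1 against D5 compares a pair of VQ lines that share the genotype, with 2 recipients each. Of 9 members tested in a fit of all 13 libraries, 5 fell and 1 rose in D1, where 21.7% of 12835 genes were lower, 20.0% higher and 41.7% called in either direction. Unadjusted, 6 of 9 had a p under 0.05, where 49.7% of all genes had one. The lower genes were Spred1, Dusp4, Dusp6, Spry4 and Spred2, and the higher one was Spred3. The p-values here rest on the spread within groups over all 13 libraries. For D1 and D5 the only replicates are recipients of 1 line, so these p-values do not measure the spread between independent lines. Neutrophil markers summed to 1229 and 347 CPM in D1 and 89.3 and 139 CPM in D5, and the 6 monocyte markers summed to 506 and 647 CPM in D1 and 3.71 and 25.3 CPM in D5. Nearly all of the monocyte sum was 1 gene, Ly6c2, at 501 and 644 CPM in D1 and 2.38 and 22.2 CPM in D5. Their part was not tested.

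Spred1 averaged 0.701 ± 0.531 CPM in D1 and 164 ± 8.14 CPM in D5 (SD, n = 2 each), with 7 counts in D1 and 1261 in D5. It fell by 8.13 ± 0.45 on the log2 scale (edgeR adjusted p = 1.57e-08), by 8.84 without D1 replicate 1 and by 7.19 without D1 replicate 2. Dusp4 had 0 counts in D1 and 234 in D5, at least 53.4-fold lower (edgeR adjusted p = 0.00357). Both genes were also present in D4, so their low values set D1 apart from the other VQ lines.

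Dusp6 fell by 2.34 ± 0.38 in D1 (adjusted p = 0.000429), with group means of 39.6 CPM in D1 and 197 CPM in D5. Spry4 fell by 1.34 ± 0.26 (adjusted p = 0.000976), at 83.5 CPM in D1 and 211 CPM in D5, and Spred2 by 1.33 ± 0.28 (adjusted p = 0.00154), at 35.4 CPM in D1 and 88.4 CPM in D5. Unlike Spred1 and Dusp4, these 3 genes were well above 0 in both lines. Spred3 rose by 3.26 ± 0.65 (adjusted p = 0.00102), at 10.2 CPM in D1 and 1.05 CPM in D5, and by 2.66 without D5 replicate 2 or 4.24 without D5 replicate 1. Spry1 (1.71 ± 0.87, adjusted p = 0.14), Spry2 (1.51 ± 1.48, adjusted p = 0.439) and Dusp5 (0.36 ± 0.80, adjusted p = 0.756) did not pass. The median over the 9 members was -1.33, beside 0.05 over all genes. Nras itself fell by 1.76 ± 0.17 in D1 (adjusted p = 1.5e-06), with 45.5 and 41.7 CPM in D1 and 132 and 163 CPM in D5.

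**Figure D3:**
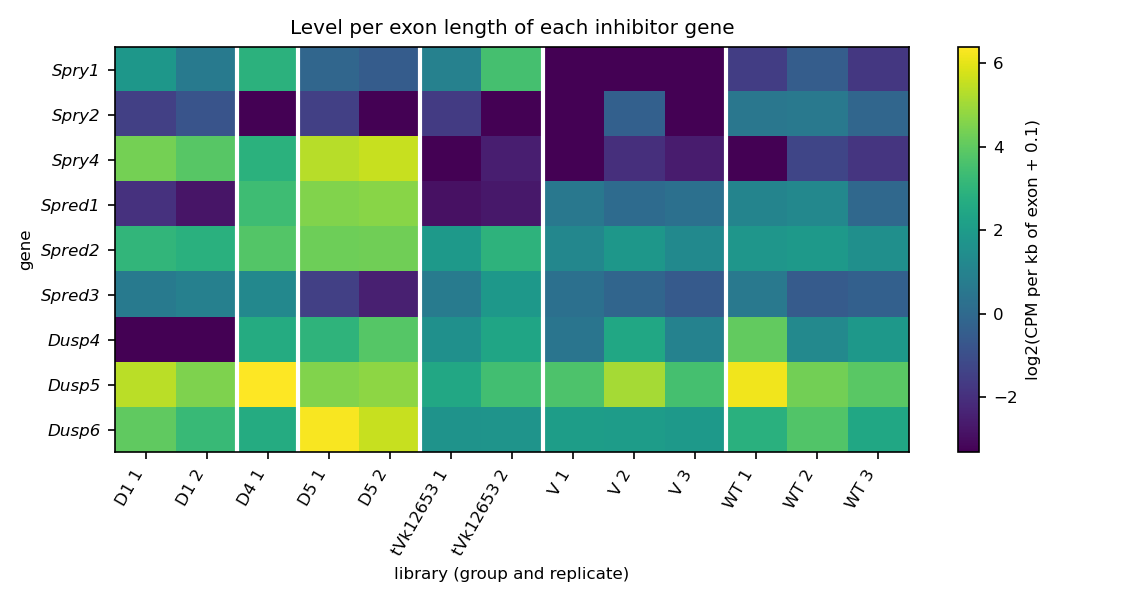
Heat map of the 9 members in the 13 libraries, as log2 of CPM per kilobase of exon with 0.1 added, grouped from D1 to WT. Dusp5 is the highest member per kilobase in D1 and D4 and Dusp6 has the highest mean in D5, at 32.3, 83.9 and 62.9 CPM per kilobase.

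Levels of different members were compared per kilobase of exon. Among the VQ lines the gene with the highest mean was Dusp5 in D1 and D4 and Dusp6 in D5. In D5 the mean was 62.9 CPM per kilobase for Dusp6, 44.3 for Spry4, 24.9 for Dusp5, 24.2 for Spred1, 19.1 for Spred2 and 11.1 for Dusp4. Dusp6 led in D5 replicate 1 (78.6 against 40.8 for Spry4) and lay close to Spry4 in replicate 2 (47.2 against 47.9). In D4 Dusp5 led at 83.9 CPM per kilobase, and the next were Spred2 at 13.7 and Spred1 at 10.3. In D1 Dusp5 (32.3), Spry4 (17.6), Dusp6 (12.6) and Spred2 (7.67) led on the same scale. Dusp5 also had the highest mean in tVk12653 (8.15), V (19.2) and WT (36.1). Dusp6 had the second mean in V (3.90) and WT (8.65), though Dusp4 exceeded it in V replicate 2 (5.45 for Dusp4, 3.98 for Dusp6) and WT replicate 1 (16.7 for Dusp4, 7.08 for Dusp6). In tVk12653 the 2 recipients differed: Spry1 was at 1.83 CPM per kilobase in replicate 1, below 5.61 for Dusp5, and at 11.3 in replicate 2, above 10.7 for Dusp5. The mean of Spry4 per kilobase was 0.0381 in tVk12653, 0.0726 in V and 0.163 in WT.

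**Figure D4:**
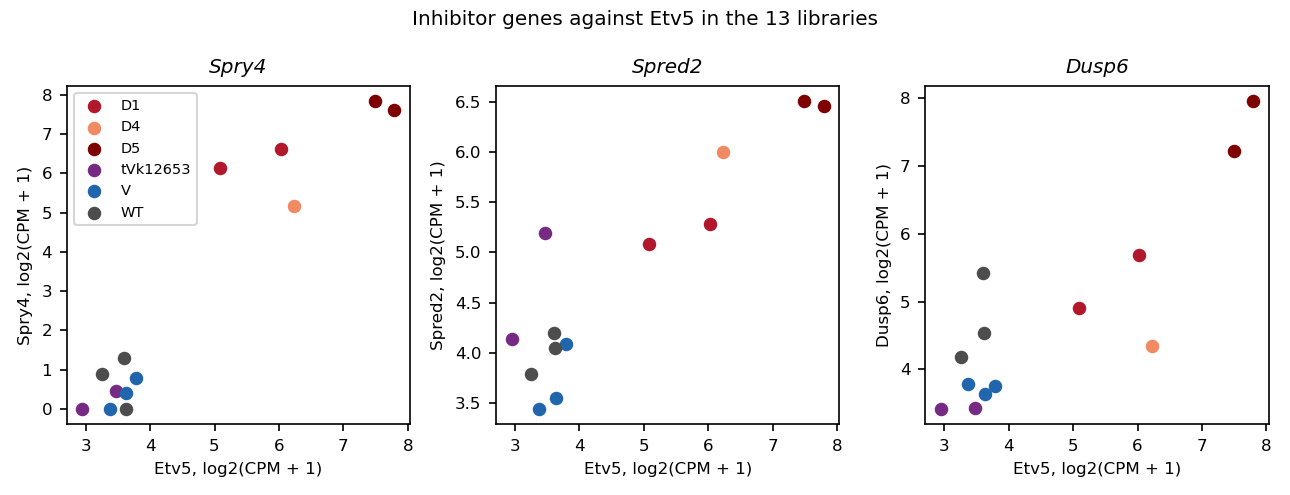
Levels of Spry4, Spred2 and Dusp6 against that of Etv5 in the 13 libraries, as log2 CPM, coloured by group, with 1 added to each CPM. The D5 libraries are highest on both axes, and Pearson's r over 13 libraries is 0.948 for Spry4, 0.909 for Spred2 and 0.859 for Dusp6.

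Etv5 encodes an ETS transcription factor that ERK signalling induces, outside the 9 members. Among 12 other ERK-induced genes, 11 of them tested, it had the smallest adjusted p in VQ against WT, so it was picked from these data. It stood at 64.3 and 33.0 CPM in D1, 73.9 in the D4 library, 221 and 179 in D5, 6.70 and 10.1 in tVk12653, 9.37, 12.8 and 11.4 in V, and 11.3, 11.1 and 8.53 in WT. Over the 13 libraries, which share groups, Pearson's r of log2 CPM with Etv5 was 0.948 for Spry4, 0.909 for Spred2, 0.859 for Dusp6 and 0.625 for Spred1. It was 0.468 for Dusp5, 0.300 for Spry1, 0.0617 for Dusp4, -0.299 for Spry2 and -0.473 for Spred3. Spry4, Spred2 and Dusp6 also went with each other, at 0.872 for Spry4 with Spred2, 0.817 for Spry4 with Dusp6 and 0.734 for Spred2 with Dusp6. Spred1 and Spred3 ran opposite ways (-0.702). These values describe groups that differ in many genes, and Etv5 alone does not stand for the output of ERK. Of the other ERK-induced genes, Etv4 went with Etv5 (r = 0.958). Egr1 had a different profile, at 30.4 to 430 CPM in VQ, 0 and 0.724 in tVk12653, 83.3 to 96.4 in V and 282 to 1066 in WT. Phlda1 also differed, at 28.2 to 250 CPM in VQ and 93.6 and 228 in tVk12653.

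Genes among the most alike to each member over the 13 libraries had the following r of log2 CPM. For Spry4 they were Dis3 (0.978) and Reep4 (0.977), and for Spred1 Asph (0.986), Trps1 (0.972) and Nav2 (0.969). For Spred2 they were Etfa (0.973) and Hspa8 (0.960), and for Dusp6 Usp14 (0.953), Tfdp1 (0.953) and Bora (0.947). Spry1 was most like Ptar1 (0.945), Atpif1 (0.940) and Rab34 (0.931), and Spred3 most like C1qtnf4 (0.949), Tmem203 (0.939) and Elmo3 (0.935). Dusp4 followed Matn2 (0.919), Egln1 (0.905) and Foxp2 (0.905), and Dusp5 had the weakest matches, Ubr4 (0.863), Srf (0.814) and Mapk11 (0.813). Spry2 varied over less than the range required, 2.78 on the log2 scale.

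Other genes of the pathway were read from 6 lists. Their counts stand beside the share of all genes called in either direction, which was 32.4% in VQ against WT, 28.0% in VQ against V and 10.2% in VQ against tVk12653. It was 28.2% in tVk12653 against WT, 23.2% in tVk12653 against V and 41.7% in D1 against D5. Of 12 other ERK-induced genes, 11 were tested in VQ against WT, with 3 higher and 1 lower, where 17.3% of all genes were higher and 15.1% lower. Etv5 was higher by 3.42 ± 0.54 (adjusted p = 0.00173), Etv4 by 6.50 ± 1.07 (adjusted p = 0.00205) and Phlda1 by 3.19 ± 0.68 (adjusted p = 0.00678), and Fos was the lower one. Against V, 5 were higher and 0 lower, and against tVk12653 3 were higher and 0 lower (Egr1, Etv5 and Etv4). In tVk12653 against WT and against V, 1 was higher (Phlda1) and 1 lower (Egr1). In D1 against D5, 1 was higher and 5 lower of 12, with Etv1 at 0 in D1 and at least 97.7-fold lower (adjusted p = 2.05e-06) and Etv5 lower by 2.07 ± 0.27 on the log2 scale (adjusted p = 3.17e-05).

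Of 20 genes of the ERK cascade, 19 were tested in VQ against WT, with 2 higher and 4 lower, a share close to the 32.4% of all genes, and a median of -0.10. Hras (1.53 ± 0.27, adjusted p = 0.00259) and Nras (1.27 ± 0.40, adjusted p = 0.0362), both RAS genes, rose. Map2k1, which encodes MEK1, fell (-0.98 ± 0.17, adjusted p = 0.00271), as did Grb2 and Sos1. Against V the counts were also 2 higher and 4 lower, and against tVk12653 1 higher (Map2k2) and 0 lower. In tVk12653 2 were higher and 4 lower against WT, and likewise against V. In D1 against D5, 6 were higher and 4 lower of 20, Braf by 1.24 ± 0.18 (adjusted p = 7.08e-05).

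Neurofibromin, the partner of Spred proteins, is encoded by Nf1, which stood at 72.6 to 128 CPM in VQ, 115 to 133 in tVk12653, 111 to 125 in V and 85.9 to 135 in WT. Its log2 value in VQ against WT was 0.05 ± 0.21 (adjusted p = 0.864). Of the 12 RAS GTPase-activating proteins and inhibitor partners, 3 were higher and 4 lower in VQ against WT, where 17.3% of all genes were higher and 15.1% lower. Rasal1 (-2.93 ± 0.46, adjusted p = 0.00155) and Rasa3 (-0.92 ± 0.24, adjusted p = 0.0156), both of the GTPase-activating family, fell. Pebp1, which encodes an inhibitor of RAF kinase, rose (1.55 ± 0.35, adjusted p = 0.00888). The counts were 2 higher and 3 lower against V, 2 higher and 1 lower against tVk12653, and 4 higher and 2 lower in D1 against D5. In tVk12653, 2 were higher and 4 lower against WT, and 2 higher and 3 lower against V.

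Of the 7 other MAP kinase phosphatases, 2 were higher and 2 lower in VQ against WT, beside the same 17.3% and 15.1% of all genes. Dusp10, whose product acts mainly on p38 and JNK, fell by 4.56 ± 0.56 (adjusted p = 0.000533), Dusp9 rose by 5.39 ± 1.28 (adjusted p = 0.011) and Dusp16 by 1.57 ± 0.35 (adjusted p = 0.00837), and Dusp1 fell. Dusp9 stood at 74.0 and 29.7 CPM in D1, 4.35 in the D4 library, 7.42 and 10.2 in D5, 53.9 and 19.2 in tVk12653, 2.47, 1.07 and 0 in V, and 0, 0.737 and 0.569 in WT. It was higher in D1 than in D5 by 2.53 ± 0.65 (adjusted p = 0.00881), whereas Dusp7 fell by 1.96 ± 0.18 (adjusted p = 1.24e-06) and Dusp2 fell by 4.80 ± 0.70 (adjusted p = 7.6e-05). The counts were 2 higher and 1 lower against V, and 1 higher (Dusp7) and 0 lower against tVk12653. In tVk12653, 2 were higher and 2 lower against WT, and 1 higher and 1 lower against V.

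Of the 7 other feedback inhibitors of receptor signalling, 5 were tested, with 1 higher and 1 lower in VQ against WT, where 32.4% of all genes were called. Il17rd, which encodes the membrane inhibitor Sef, was at 0 in all WT libraries. Its mean over the VQ libraries was at least 8.84-fold higher (adjusted p = 0.0113), though D5 lay close to the floor of 1.01 CPM. Dok3 fell by 2.71 ± 0.58 (adjusted p = 0.00701). Il17rd stood at 13.5 and 19.3 CPM in D1, 9.27 in the D4 library and 1.06 and 1.28 in D5, and rose in D1 against D5 by 3.78 ± 0.68 (adjusted p = 0.000696), the direction of Spred3. Against V, 1 was higher and 2 lower, against tVk12653 0 were called, and tVk12653 had 1 higher and 1 lower against WT, and 1 higher and 0 lower against V. Of 14 receptor tyrosine kinases, 5 were tested in VQ against WT, with Igf1r (1.80 ± 0.17, adjusted p = 0.000143) and Erbb3 (2.08 ± 0.34, adjusted p = 0.00189) higher and Flt3 (-5.43 ± 0.94, adjusted p = 0.0027) and Kit (-3.81 ± 0.74, adjusted p = 0.00452) lower. The counts were 2 higher and 2 lower against V, 0 against tVk12653, 2 higher and 2 lower in tVk12653 against WT, and 2 higher and 1 lower in tVk12653 against V. In D1 against D5, 2 were higher and 1 lower of 8, the lower one being Insr (-3.94 ± 0.37, adjusted p = 2.23e-06). V against WT had 0 called by edgeR in each of the 6 lists.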

How the data were processed

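The 13 libraries were made with a SMARTer kit that keeps strand and needs little RNA, per the labels' protocols. The authors deposited 1 table of raw read counts per gene symbol. Alignment used STAR 2.6.1d and GRCm38.p6, per the submitters' processing notes. How reads were assigned to genes, by strand and when multiply aligned, is not given in the sources used here. Counts were scaled by trimmed means of M values and filtered with filterByExpr (minimum count 10, minimum total 15). Tests were edgeR 4.0.16 robust quasi-likelihood tests run under R 4.3.3. The p-values were adjusted by Benjamini-Hochberg over every gene tested, and 0.05 was the threshold. Arms were compared over 11 units (11933 genes, common biological coefficient of variation 0.409), with recipients of a VQ line summed, and D1 against D5 over 13 libraries with 1 mean per group (12835 genes, 0.195). In both fits all groups share an estimate of the spread for each gene. All 9 members are named, and of the other pathway genes those with the smallest adjusted p. A gene at 0 in a group has a bound, the mean CPM of the other group's libraries over a floor of 3 counts per library. It covers counting error only, and the floor is 0.326 to 1.48 CPM. The most alike genes are the 3 with the highest r, for members whose log2 CPM (prior count 2) ranges over more than 3. Results for a few single genes of the lists and of the most alike genes are left out. Exon lengths and positions are from GENCODE M21. Same-numbered V and WT libraries had correlated deviations from their group means (r = 0.19, 0.158 and 0.125), so their numbers were taken to pair them, from this check and not from the labels. Alternatives were DESeq2 1.42.0, size factors by relative log expression, omission of the filter, 1 mean per group over all libraries, a replicate block, V and WT fitted alone, omission of both WT replicate 2 and D1 replicate 1, and omission of each library or line. The tests were checked on simulated data. The members and lists were chosen with earlier results of these data known.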

Additional observations from a re-analysis of the deposited data

How the results depend on the processing

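Among members with an unadjusted p under 0.05 no value changed sign under the alternatives. Values of Dusp4, Dusp5, Spred3 and Spry1 above that p did, as given beside them for the comparisons of VQ. Counts of members called are 2 in VQ against WT, 4 in VQ against V, 2 in VQ against tVk12653, 1 in tVk12653 against WT, 1 in tVk12653 against V, 0 in V against WT and 6 in D1 against D5. With DESeq2 they were 4 in VQ against WT, 4 in VQ against tVk12653, 3 in tVk12653 against WT and 2 in tVk12653 against V, where 4406, 2121, 3943 and 3514 of 11782 genes were called. With all 13 libraries and 1 mean per group, which takes recipients as replicates, they were 6, 5, 5 and 4, where 7359, 5028, 6248 and 5727 of 12835 genes were called. With a replicate block added they were 4, 5, 3 and 4, where 6893, 5084, 5965 and 5381 genes were. That block used the replicate numbers of all groups, though these were taken as pairs only for V and WT. In VQ against WT the 6 were Dusp6, Spred2, Spry1 and Spry4 higher and Dusp4 and Spry2 lower. With no low-count filter VQ against tVk12653 had 1, where 878 of 20284 genes were called. Without both WT replicate 2 and D1 replicate 1, VQ against tVk12653 had 1 and tVk12653 against WT had 0. In these, 938 and 2160 of 11846 genes were called. With V and WT fitted alone, the replicate block gave 1 call, Dusp6, where 479 of 10510 genes were called. With no block that fit called 0 members and 2 genes. With 1 library or line left out, the count ranged from 2 to 3 in VQ against WT, 3 to 5 in VQ against V, 0 to 4 in VQ against tVk12653, 0 to 1 in tVk12653 against WT, 0 to 1 in tVk12653 against V, 0 to 0 in V against WT and 6 to 7 in D1 against D5. The causes were not tested. As reported, VQ against WT called 3872 of 11933 genes and VQ against tVk12653 called 1212. For tVk12653, 3369 were called against WT and 2771 against V. Counts limit Spry2 throughout and Spry4, Spry1 and Spred1 in their low groups.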
